A study of Mus musculus with 4 samples.

Results

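The 36 genes described here encode enzymes and regulators that make the lipids of myelin, chosen as a fixed list of symbols for cholesterol synthesis, fatty acid synthesis and sphingolipid synthesis. Each symbol matched 1 of the 32285 genes listed in the deposited matrices, so 36 of 32285 genes were followed. By role, 7 act in the mevalonate steps, 10 in the steps from squalene to cholesterol, 4 as regulators, 10 in fatty acid synthesis, elongation and desaturation, and 5 in sphingolipid and galactolipid synthesis. The 17 genes of the first 2 roles are called the cholesterol synthesis genes below.

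Droplet-based single-cell RNA sequencing was run on hind limb muscle cells, from the tibialis anterior and gastrocnemius, of male mice aged 2 months. All mice carried the S100GFPtg reporter, in which the S100B promoter drives GFP to mark Schwann cells (SCs). The control group (WT) carried the reporter alone, and the other group (Sod1KO) carried it together with the Sod1-/- deletion, which removes the cytosolic superoxide dismutase from the whole animal and not from SCs alone. The muscles of 4 mice per genotype were pooled, and the viable cells were sorted into a GFP+ and a GFP- fraction, giving 4 libraries and 1 library per group, with all tissue handled at the same time to limit batch differences. With 1 library per group no difference between conditions could be tested. Each interval below is a 95% counting interval that covers counting error only, not differences between mice or between cells.

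Myelin is a stack of SC membrane that is rich in cholesterol, in the galactolipids galactosylceramide and sulfatide, and in sphingolipids with very long acyl chains. Cholesterol does not reach nerve efficiently from blood, so myelinating SCs synthesise most of their own. The genes of the pathway are switched on together by SREBP-2, a membrane-bound transcription factor that is escorted to the Golgi by SCAP when sterols are low and is held back by INSIG proteins when sterols are plentiful; SREBP-1 acts in the same way mainly on fatty acid genes. Terminal SCs (tSCs) cover the neuromuscular junction and do not make myelin.

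The libraries held between 2052 and 7267 barcodes and between 21959719 and 105954116 UMIs, and the filters left 4557 WT GFP+, 5925 Sod1KO GFP+, 1638 WT GFP- and 5143 Sod1KO GFP- cells. Any 2 libraries shared between 1 and 13 barcodes. Clusters were made with the 36 genes and 54 related ones left out, and were named from marker lists that hold none of them. Myelinating SC-like (mSC-like) cells numbered 1077 in WT and 657 in Sod1KO GFP+, tSC-like cells numbered 378 and 871, and the GFP- libraries held 6 or fewer of either class. The marker check separated the 2 classes. Mbp, which encodes myelin basic protein, stood at 5722 and 4792 CPM (UMIs per 1000000 UMIs of the class in that library) in WT and Sod1KO mSC-like cells and at 300.4 and 244 CPM in tSC-like cells. Sox10, the SC lineage factor, stood at 405 and 365 CPM in the former and at 377 and 316 CPM in the latter. The summed list of 8 tSC markers stood at 3749 and 2249 CPM in tSC-like and at 299 and 358 CPM in mSC-like cells. Of the 8, 6 in WT and 7 in Sod1KO tSC-like cells were over 20 CPM. Whether the tSC-like cells came from the neuromuscular junction was not tested. A further cluster of 299 WT and 150 Sod1KO cells carried myelin, perineurial and mesenchymal markers together (mSC list 17913 and 16710 CPM, perineurial list 2141 and 1999 CPM, mesenchymal list 16209 and 14218 CPM) and was left unnamed among the other GFP+ cells. Sod1, the targeted gene, was still counted in the libraries labelled Sod1KO, at 98.1 CPM in GFP+ and 113 CPM in GFP- against 91.0 and 123 CPM in WT, and reads at the 3′ end of a transcript outside the deleted part neither check nor contradict the label.

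The genes of the cholesterol pathway are controlled through their promoters, so the 250 bases before the start are shown for the 4 cholesterol synthesis genes with the highest ratio of mSC-like over other WT GFP+ cells among those in the RefSeq promoter table (build GRCm38.p6), which matched 29 of the 36 genes. In each line capitals mark the letters searched, on either strand, namely the sterol regulatory element TCACNCCAC, the box CCAAT, the GC box GGGCGG and the E-box CACGTG, and neighbouring capitals can belong to overlapping matches. Msmo1 lies at chr8:64733579-64733828 on the minus strand, Hmgcs1 at chr13:119690101-119690350 on the plus strand, Cyp51 at chr5:4104698-4104947 on the minus strand and Idi1 at chr13:8885356-8885605 on the plus strand, each window written 5′ to 3′ along the gene.
Msmo1: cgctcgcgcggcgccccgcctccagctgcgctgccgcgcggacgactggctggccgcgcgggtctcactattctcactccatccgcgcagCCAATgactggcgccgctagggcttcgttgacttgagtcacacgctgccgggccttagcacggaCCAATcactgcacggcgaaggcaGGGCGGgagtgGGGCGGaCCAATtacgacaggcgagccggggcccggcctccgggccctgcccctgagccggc
Hmgcs1: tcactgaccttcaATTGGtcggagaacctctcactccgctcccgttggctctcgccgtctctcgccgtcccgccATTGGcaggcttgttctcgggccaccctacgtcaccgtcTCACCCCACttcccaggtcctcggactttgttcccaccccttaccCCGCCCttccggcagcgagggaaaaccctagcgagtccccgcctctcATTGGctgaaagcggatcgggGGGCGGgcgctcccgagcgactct
Cyp51: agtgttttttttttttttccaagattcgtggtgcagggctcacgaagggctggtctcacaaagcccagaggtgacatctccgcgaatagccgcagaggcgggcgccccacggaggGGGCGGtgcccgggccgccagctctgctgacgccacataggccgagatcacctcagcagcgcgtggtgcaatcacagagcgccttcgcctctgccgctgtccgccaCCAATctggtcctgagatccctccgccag
Idi1: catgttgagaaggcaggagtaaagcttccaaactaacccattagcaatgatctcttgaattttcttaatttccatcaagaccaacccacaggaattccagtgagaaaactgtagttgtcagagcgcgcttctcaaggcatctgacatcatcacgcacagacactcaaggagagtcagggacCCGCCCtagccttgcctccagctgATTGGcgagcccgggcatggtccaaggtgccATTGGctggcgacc

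The TCACNCCAC letters were found in the window of 1 of the 29 genes, Hmgcs1, starting 137 bases before its start, against 1.22% of all 27025 genes in the table. CCAAT was found in 21 of 29 genes (72.4%), and in 13 of the 14 cholesterol synthesis genes with a window, against 37.5% of all genes. GGGCGG was found in 22 of 29 genes (75.9%), and in 13 of the same 14, against 35.4% of all genes. CACGTG was found in 8 of 29 genes (27.6%) against 6.86% of all genes, and in 3 of the 14. The shares describe letters in short windows and say nothing of binding. All genes in the table served as background, not matched for expression, gene type or base content. Whether the higher shares are particular to these pathways was therefore not tested.

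mSC-like cells held most of these genes at higher levels than the other cells of the same sort. In WT, 22 of 36 genes were at least 2-fold higher in mSC-like than in other GFP+ cells, where 15.4% of the 17350 genes with a ratio (at least 20 UMIs in the 2 sums) were. In Sod1KO it was 26 of 36, against 15.7% of 18053 genes. The median log2 ratio of the 36 genes was 1.32 in WT and 1.45 in Sod1KO, and of all genes -0.09 and -0.06. The same 22 genes passed in both genotypes, and 10 passed in neither. Without the unnamed cluster with myelin markers among the other cells, the counts were 25 of 36 in WT (16.6% of all genes) and 26 of 36 in Sod1KO (15.7%).

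**Figure D1:**
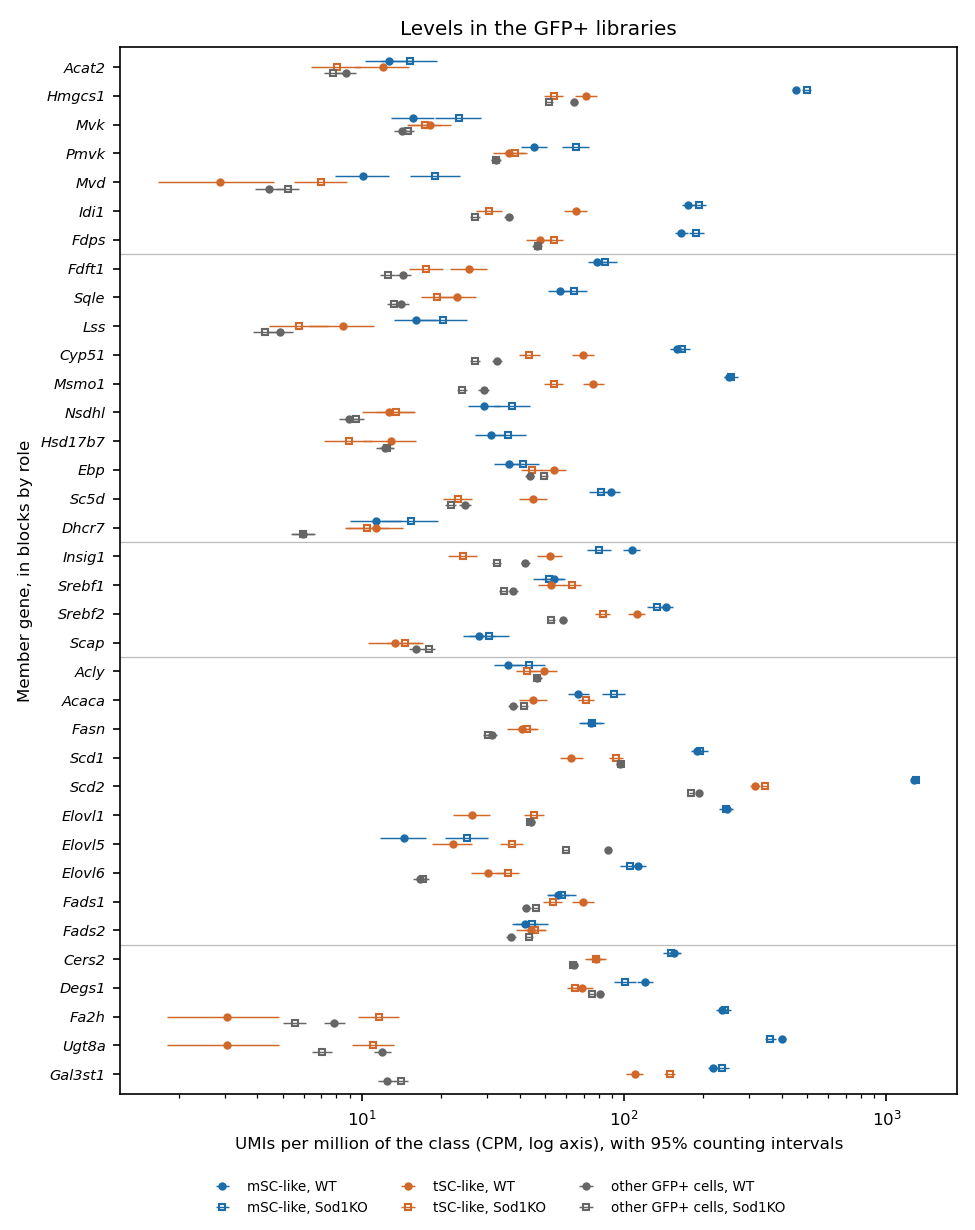
Level of each of the 36 genes in mSC-like cells (blue), tSC-like cells (orange) and all other GFP+ cells (grey) of the WT (filled circles) and Sod1KO (open squares) GFP+ libraries, in CPM on a log axis, with exact 95% counting intervals; genes are in blocks by role. The blue points lie to the right of the other colours for most genes, with Elovl5 the clearest exception at 14.4 and 25.2 CPM in mSC-like cells against 86.8 and 59.8 CPM in other cells.

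Among the 7 genes of the mevalonate steps, which lead from acetyl-CoA to the isoprenoid farnesyl diphosphate, 4 in WT and 5 in Sod1KO were at least 2-fold higher in mSC-like cells. Hmgcs1, which makes HMG-CoA, stood at 450.1 CPM (435 to 466) in WT and 496 CPM (476 to 518) in Sod1KO mSC-like cells, against 64.4 and 51.7 CPM in other GFP+ cells, a log2 ratio of 2.81 and 3.26. Idi1, which isomerises the isoprenoid unit, stood at 175 and 192 CPM in mSC-like and 36.2 and 27.1 CPM in other cells, with log2 ratios of 2.28 and 2.83. Fdps, which joins these units into farnesyl diphosphate, stood at 165 and 189 CPM against 46.4 and 47.1 CPM, with log2 ratios of 1.83 and 2.00. Mvd, the decarboxylase before them, stood at 10.1 and 19.1 CPM against 4.44 and 5.21 CPM, with log2 ratios of 1.18 and 1.87 on 72 and 84 mSC-like UMIs. The other 3 genes differed less: Acat2, a thiolase at the entry, had log2 ratios of 0.55 and 0.97, Mvk (mevalonate kinase) 0.14 and 0.64, and Pmvk (phosphomevalonate kinase) 0.48 and 1.01. The class difference was thus spread unevenly along the mevalonate steps, and Pmvk in Sod1KO lay just inside the 2-fold limit and Acat2 just outside it.

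In the 10 steps from squalene to cholesterol, 8 genes in WT and 9 in Sod1KO were at least 2-fold higher in mSC-like cells. Msmo1, the sterol C4-methyl oxidase, had the highest ratio of the cholesterol synthesis genes, at 251 CPM (239 to 263) in WT and 255 CPM (241 to 271) in Sod1KO against 29.2 and 24.1 CPM in other cells, a log2 ratio of 3.10 and 3.41. Fdft1, which makes squalene, stood at 79.0 and 84.6 CPM against 14.4 and 12.5 CPM (log2 ratios 2.46 and 2.75), and Sqle, the squalene epoxidase, at 56.9 and 64.2 CPM against 14.1 and 13.3 CPM (2.01 and 2.28). Lss, which closes the sterol rings, stood at 16.1 and 20.4 CPM against 4.88 and 4.29 CPM (1.72 and 2.25). The mSC-like levels were thus higher in both genotypes at each of the first steps. Cyp51, the lanosterol demethylase, stood at 159 and 166 CPM against 32.8 and 27.1 CPM (2.28 and 2.62). Nsdhl, the dehydrogenase that works after Msmo1, stood at 29.3 and 37.4 CPM against 8.92 and 9.46 CPM (1.71 and 1.98), and Hsd17b7, the ketoreductase after it, at 30.95 and 36.1 CPM against 12.2 and 12.4 CPM (1.34 and 1.54). Sc5d, a sterol desaturase near the end, stood at 89.2 and 81.9 CPM against 24.7 and 21.8 CPM (1.86 and 1.91). Dhcr7, the last reductase, had log2 ratios of 0.93 and 1.37, just outside and inside the limit. Ebp, the sterol isomerase, was the exception among the cholesterol synthesis genes, with a log2 ratio of -0.27 in both genotypes and 36.3 and 41.1 CPM in mSC-like cells.

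Of the 4 regulators, Insig1 and Srebf2 were at least 2-fold higher in mSC-like cells of both genotypes. Srebf2, which encodes SREBP-2, stood at 144 and 133 CPM in WT and Sod1KO mSC-like cells against 58.5 and 52.8 CPM in other cells, with log2 ratios of 1.30 and 1.33, and Insig1 at 107 and 80.1 CPM against 42.0 and 32.6 CPM, with log2 ratios of 1.35 and 1.30. Scap had log2 ratios of 0.80 and 0.77, and Srebf1, which encodes SREBP-1, 0.51 and 0.57.

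Summed over the 17 cholesterol synthesis genes, mSC-like cells held 1634 CPM (1604 to 1664) in WT and 1803 CPM (1764 to 1843) in Sod1KO. The tSC-like cells held 593 CPM (574 to 613) and 450.4 CPM (438 to 463). Every other class with at least 50 cells in a library lay between 194 CPM, in macrophage-like cells of Sod1KO GFP-, and 443 CPM, in mesenchymal-like cells of WT GFP+. The intervals of the mSC-like cells did not overlap those of any other named class in either genotype. Endothelial-like cells held 212 to 240 CPM in the 4 libraries, and the unnamed cluster with myelin markers held 943 and 1089 CPM.

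**Figure D2:**
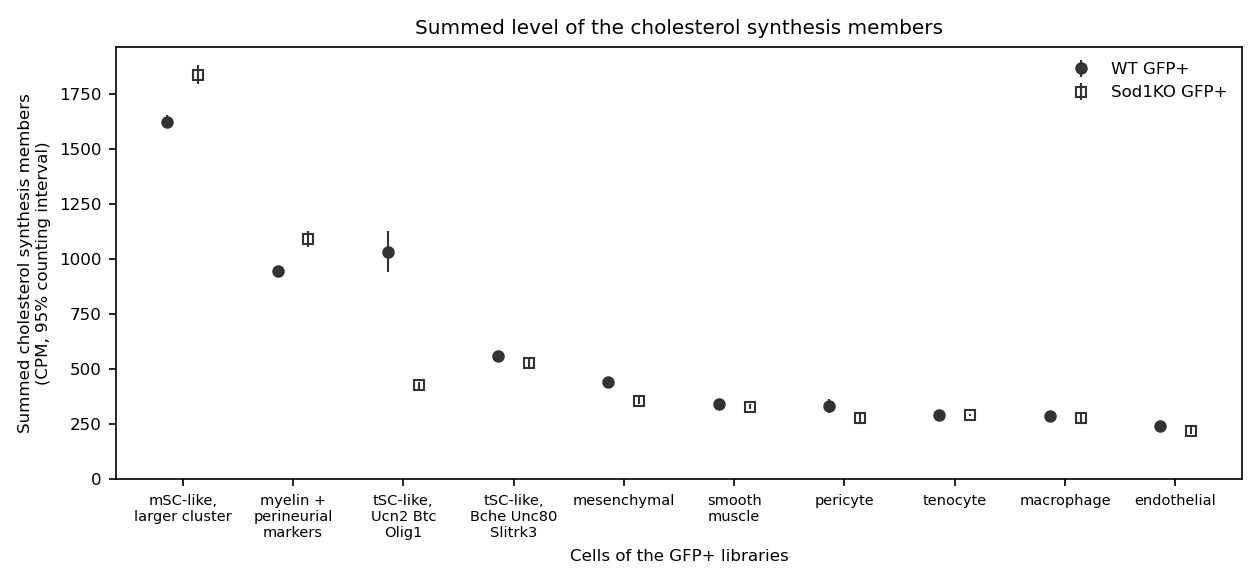
Summed CPM of the 17 cholesterol synthesis genes in classes and clusters of the GFP+ libraries, WT as filled circles and Sod1KO as open squares, with exact 95% counting intervals on an axis from 0. The larger mSC-like cluster stands at 1623 and 1837 CPM, the tSC-like cluster led by Ucn2, Btc and Olig1 at 1032 and 427 CPM and the one led by Bche, Unc80 and Slitrk3 at 560 and 528 CPM.

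Fatty acid genes were divided between those with high levels in mSC-like cells and those without. Scd2, a stearoyl-CoA desaturase, stood at 1276 CPM (1250 to 1303) in WT and 1297 CPM (1263 to 1331) in Sod1KO mSC-like cells, against 192 and 180 CPM in other GFP+ cells, a log2 ratio of 2.73 and 2.85. Elovl6, which elongates palmitate, stood at 113 and 106 CPM against 16.7 and 17.1 CPM, with log2 ratios of 2.76 and 2.63. Elovl1, which extends saturated acyl chains to the very long lengths used in sphingolipids, had log2 ratios of 2.48 and 2.49, with 247 and 245 CPM in mSC-like cells, 44.2 and 43.6 CPM in other cells and 26.2 and 45.4 CPM in tSC-like cells. The elongases of saturated chains thus showed the class difference in both genotypes. Fasn, the fatty acid synthase, stood at 74.9 and 75.3 CPM against 31.2 and 30.2 CPM, with log2 ratios of 1.26 and 1.32, and Acaca, the acetyl-CoA carboxylase that feeds it, 0.83 and 1.14. Scd1, the other desaturase, had log2 ratios of 0.97 and 1.01, and of 1.75 (1.65 to 1.84) and 1.21 without the unnamed cluster, which held 47.4% of the WT and 16.4% of the Sod1KO Scd1 UMIs of the other cells. By contrast Acly, which makes cytosolic acetyl-CoA from citrate, had log2 ratios of -0.37 and -0.10, and the desaturases of polyunsaturated chains differed little: Fads1 by 0.40 and 0.34 and Fads2 by 0.18 and 0.03. Elovl5, which elongates polyunsaturated chains, was the 1 gene of the 36 that was at least 2-fold lower in mSC-like cells in both genotypes, at -2.59 and -1.25, where 29.3% and 26.8% of all genes were; its highest levels were in smooth muscle-like cells, 237, 221 and 277 CPM in WT GFP+, Sod1KO GFP+ and Sod1KO GFP-.

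The 2 desaturase genes were used in different proportions by different cells. Scd2 made up 87.1% (86.4 to 87.7) of the Scd1 and Scd2 UMIs in WT mSC-like cells and 86.9% (86.1 to 87.7) in Sod1KO. The share was 83.4% and 78.6% in tSC-like cells, 91.3% and 93.1% in smooth muscle-like cells and 73.3% and 72.6% in tenocyte-like cells, in the same order. Perineurial-like cells, which reached 50 cells only in the Sod1KO libraries, had 42.8% in GFP+ and 56.6% in GFP-, and their Scd1 level of 446 and 327 CPM was the highest of any named class. In the unnamed cluster with myelin and perineurial markers the share was 61.0% and 63.5%. The 2 genes are paralogues on chromosome 19 (build GRCm38, Scd2 at 44293676 to 44306864 and Scd1 at 44394450 to 44407709), and reads that match both could not be split from these counts.

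**Figure D3:**
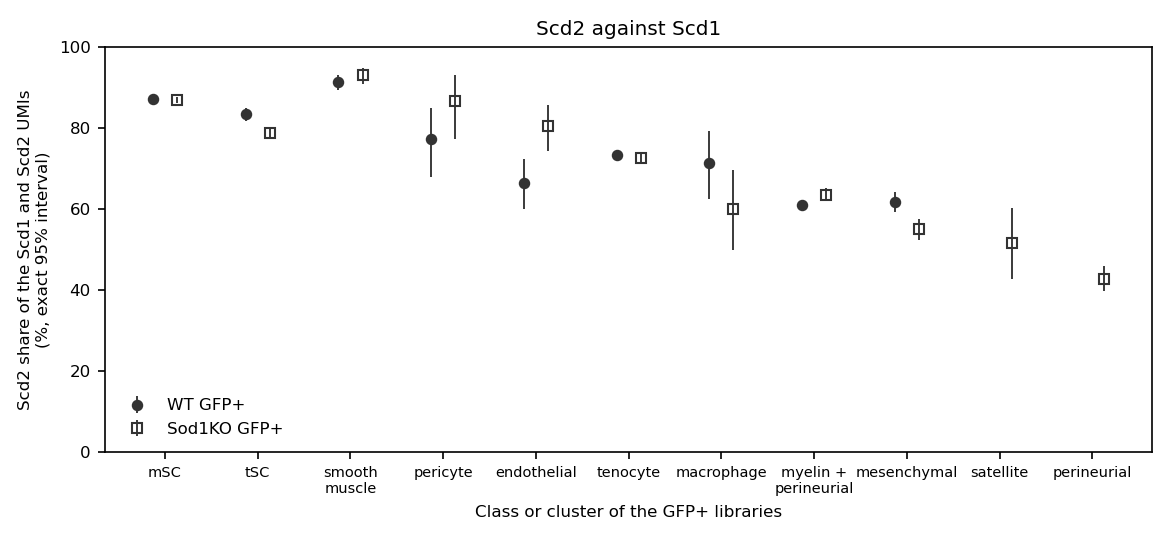
Scd2 as a percentage of the summed Scd1 and Scd2 UMIs in classes of the GFP+ libraries with at least 50 cells and 50 such UMIs, WT as filled circles and Sod1KO as open squares, with exact binomial 95% intervals. The mSC-like cells lie at 87.1% and 86.9%, and the Sod1KO perineurial-like cells are lowest at 42.8%.

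The genes of sphingolipid and galactolipid synthesis held the highest ratios of the 36. Ugt8a, which adds galactose to ceramide, stood at 399 CPM (385 to 414) in WT and 361 CPM (344 to 379) in Sod1KO mSC-like cells, against 12.0 and 7.05 CPM in other GFP+ cells, log2 ratios of 5.06 and 5.68. Fa2h, which hydroxylates the fatty acids of these lipids, stood at 236 and 241 CPM against 7.85 and 5.55 CPM in other cells, with log2 ratios of 4.91 and 5.44. Of the UMIs of the other GFP+ cells, 94.9% of Ugt8a and 92.2% of Fa2h in WT, and 65.2% and 69.1% in Sod1KO, came from the unnamed cluster with myelin markers, and without that cluster the log2 ratios were 9.19 and 7.14 for Ugt8a and 8.44 and 7.08 for Fa2h. In the remaining WT cells 36 UMIs of each gene were counted. Cers2, the ceramide synthase for very long chains, stood at 155 and 151 CPM against 64.4 and 64.0 CPM, with log2 ratios of 1.27 and 1.24, and Degs1, which makes the double bond of ceramide, 0.56 and 0.42.

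Gal3st1, which adds the sulphate that turns galactosylceramide into sulfatide, had another distribution. It was counted at 219 and 237 CPM in WT and Sod1KO mSC-like cells, and also at 110 CPM (101 to 118) and 149 CPM (142 to 157) in tSC-like cells, against 12.4 and 14.2 CPM in other GFP+ cells, so that its log2 ratio was 4.14 and 4.06 in mSC-like and 3.14 and 3.40 in tSC-like cells. The unnamed cluster held 84.0% of the WT and 30.9% of the Sod1KO Gal3st1 UMIs of the other cells, and without it the log2 ratios were 6.63 and 4.54 in mSC-like and 5.63 and 3.87 in tSC-like cells. Set directly side by side, mSC-like cells were higher than tSC-like cells by 1.00 (0.87 to 1.13) in WT and 0.67 (0.55 to 0.78) in Sod1KO on the log2 scale for Gal3st1, and by 7.03 and 5.03 for Ugt8a, the enzyme that makes its acceptor, which stood at 3.05 and 11.1 CPM in tSC-like cells. After every cell was thinned to 1000 UMIs, a Ugt8a UMI remained in 30.7% of the mSC-like cells in WT and 28.8% in Sod1KO, against 0 of 309 and 0 of 248 cells of the tSC-like cluster led by Bche. With 3 cells taken as an approximate limit for a count of 0, in place of an exact interval, this allows a share of up to 0.971% and 1.21%. For Gal3st1 the thinned share was 19.0% and 18.3% in mSC-like cells, and 12.3% and 14.9% in that tSC-like cluster. Endothelial-like cells, taken as the background for free RNA, gave 0 of 268 and 0 of 231 cells for Gal3st1, Ugt8a and Fa2h alike, which by the same limit of 3 cells allows up to 1.12% and 1.30%. Before thinning, the Gal3st1 shares were 72.4% and 73.7% in mSC-like, 78.0% and 77.1% in the Bche cluster and 1.12% and 1.30% in endothelial-like cells, at median depths of 6245 and 6118, 14397 and 10910, and 10488 and 9364 UMIs. The Gal3st1 share in the Bche cluster was thus above that in endothelial-like cells, while for Ugt8a, with no UMI left in either after thinning, the 2 could not be told apart.

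**Figure D4:**
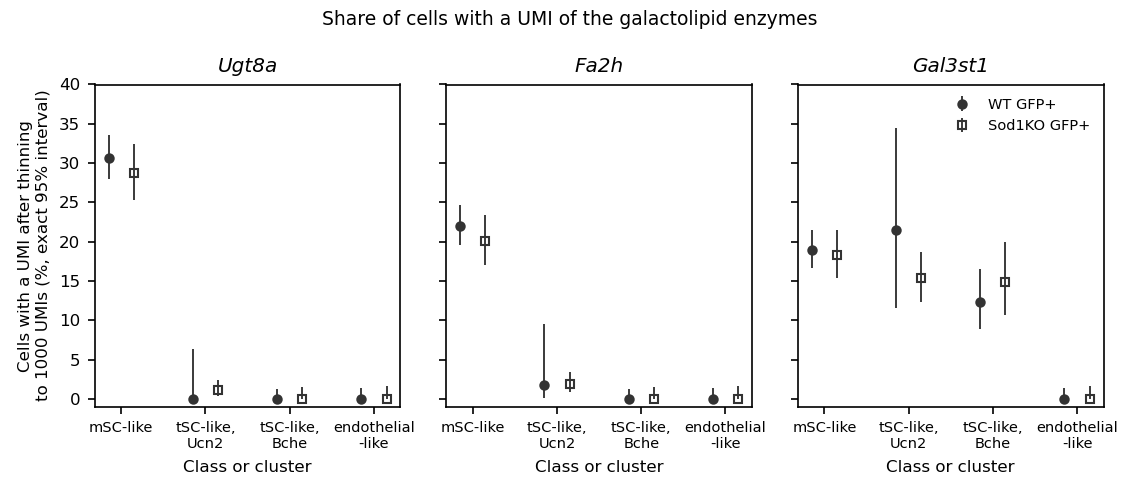
Percentage of cells with at least 1 UMI of Ugt8a, Fa2h and Gal3st1 after each cell was thinned to 1000 UMIs, in mSC-like cells, the tSC-like clusters led by Ucn2 and by Bche, and endothelial-like cells, WT as filled circles and Sod1KO as open squares, with exact binomial 95% intervals. Ugt8a reaches 30.7% and 28.8% in mSC-like cells and 0 in the Bche cluster, while Gal3st1 reaches 12.3% and 14.9% there.

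Few of the 36 genes were 2-fold higher in tSC-like cells. An interval above 0 was found for 24 in WT and 22 in Sod1KO, and one below 0 for 6 in each. Of all genes with a ratio, 6506 of 17409 in WT and 7086 of 18259 in Sod1KO had an interval above 0, and 5244 and 6029 below. The median log2 ratio of the 36 genes was 0.33 and 0.27, against 0.10 and 0.05 for all genes. Among genes with at least 20 UMIs in each of the 2 sums the median was 0.30 and 0.29, close to that of the 36. In WT, 3 of 36 genes were at least 2-fold higher in tSC-like than in other GFP+ cells, where 17.0% of all genes were, and in Sod1KO 4 of 36, where 15.5% were. Gal3st1 and Msmo1 passed in both genotypes, the latter at 76.4 and 54.0 CPM against 29.2 and 24.1 CPM, log2 ratios of 1.39 and 1.17. The count in WT moved to 13 of 36 without the unnamed cluster (18.6% of all genes), and to 6 of 36 in Sod1KO (16.1%). Set directly against tSC-like cells, mSC-like cells were at least 2-fold higher for 18 of 36 genes in WT, against 12.2% of all genes, and for 20 of 36 in Sod1KO, against 10.1%. No gene of the 36 was 2-fold lower in mSC-like than in tSC-like cells, and the lowest log2 ratio was -0.62, for Elovl5 in WT. Of all genes with a ratio, 2723 of 13018 in WT and 2708 of 13294 in Sod1KO were 2-fold lower.

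Across the whole data set, the lower of the WT and Sod1KO mSC-like levels was above the highest level of any other named class outside the SC classes for 21 of 36 genes. The 15 others included Srebf1, Srebf2, Scap, Acly, Elovl5, Fads1 and Fads2. The share of all genes that are highest in mSC-like cells in this way was not computed. The count of 21 is therefore a description and not a result about the 36 genes as a group. Scap was highest in perineurial-like cells of Sod1KO GFP-, at 67.0 CPM, Acly in mesenchymal-like cells of WT GFP+, at 125 CPM, and Degs1 in macrophage-like cells of WT GFP+, at 142 CPM. The comparison is of each gene with itself between classes, since levels of different genes were not put on a scale per length.

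Between genotypes, the mSC-like cells differed little in these genes. At least 1.5-fold higher in Sod1KO were 2 of 36 genes, Mvd and Elovl5, where 5.69% of the 12100 genes with a ratio were, and 0 of 36 were at least 1.5-fold lower, where 7.12% were. The median log2 ratio of Sod1KO over WT was 0.11 for the 36 genes and -0.03 for all genes. Mvd stood at 10.1 CPM (7.89 to 12.7) in WT and 19.1 CPM (15.2 to 23.6) in Sod1KO, a log2 ratio of 0.92 (0.45 to 1.39), and Elovl5 at 14.4 and 25.2 CPM, a log2 ratio of 0.80 (0.40 to 1.21). Mvk at 0.58 lay just outside the limit, Pmvk stood at 0.53 and Acaca at 0.45. Scd2 differed by 0.02 (-0.03 to 0.07), Fa2h by 0.03 (-0.08 to 0.14), Ugt8a by -0.14 (-0.23 to -0.06) and Gal3st1 by 0.11. The gene furthest below 0 was Insig1, at -0.41 (-0.60 to -0.23).

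The 17 cholesterol synthesis genes together were slightly higher in Sod1KO mSC-like cells, with a log2 ratio of 0.14 (0.10 to 0.18). In WT 181 of 1077 and in Sod1KO 98 of 657 mSC-like cells held 50% of the summed UMIs. The counting interval leaves out this spread between cells. Of the 17, 7 had an interval above 0 and 0 below. Of all 12100 genes with a ratio, 1346 had one above 0 and 1639 below. A per-cell marker rule for the classes turned the ratio of the sum to -0.09. Subclusters of the mSC-like cells differed in this ratio and in their share of the cells between genotypes. The sum therefore compares different mixtures of cells, and their part in it was not tested. Cells led by Taf7l, Tsks and Pmp2, 268 in WT and 225 in Sod1KO, stood at 1803 CPM (1735 to 1872) and 2390 CPM (2308 to 2474), a log2 ratio of 0.41 (0.33 to 0.48). The largest mSC-like subcluster, of 734 and 375 cells led by Cmtm8 and Spp1, stood at 1609 and 1572 CPM, a log2 ratio of -0.03 (-0.09 to 0.02). A small subcluster of 22 and 38 cells, led by Erbb4, Jakmip2 and Nrg1, went the other way, at 1588 CPM (1353 to 1851) and 1102 CPM (964 to 1256). Another, of 52 WT and 16 Sod1KO cells, had the perineurial markers Krt19, Cldn1 and Lypd2 among its leading genes. No ratio was taken for it. In the Taf7l subcluster the log2 ratios of the 7 mevalonate genes were 1.44 for Mvd, 0.96 for Acat2, 0.91 for Pmvk, 0.80 for Mvk, 0.58 for Fdps, 0.55 for Idi1 and 0.36 for Hmgcs1. Those of the 10 later genes ran from -0.10 for Sc5d and -0.033 for Sqle to 0.66 (-0.15 to 1.49) for Dhcr7 and 0.83 for Nsdhl, and Insig1 stood at -0.30 (-0.65 to 0.05). The mitochondrial share of UMIs was 5.11% in WT and 6.09% in Sod1KO mSC-like cells and the share of Gm42418, a gene that takes up ribosomal RNA reads, 3.00% and 5.69%, and their part in the small differences was not tested beyond leaving both out of the totals, which gave a summed log2 ratio of 0.20.

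**Figure D5:**
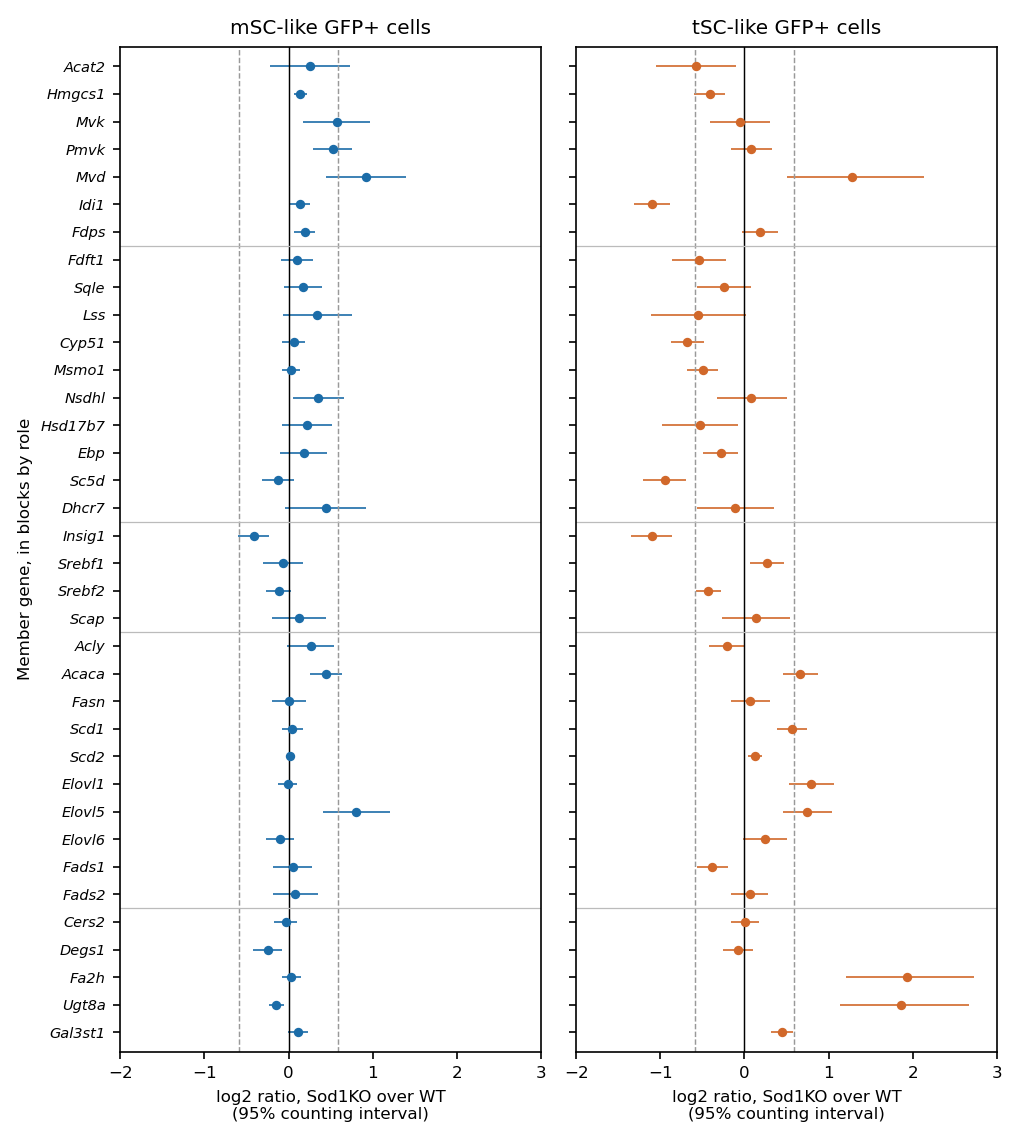
log2 ratio of Sod1KO over WT for each of the 36 genes in mSC-like (left) and tSC-like (right) GFP+ cells, with 95% counting intervals; the solid line marks no difference and the dashed lines 1.5-fold. In mSC-like cells 34 genes lie between the dashed lines, and in tSC-like cells 26 do, with Idi1 and Insig1 lowest at -1.10 and Fa2h highest at 1.93.

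The tSC-like cells as a whole showed larger ratios between genotypes. At least 1.5-fold higher in Sod1KO were 6 of 36 genes, where 11.5% of the 13512 genes with a ratio were, and at least 1.5-fold lower were 4 of 36, where 14.4% were. The lower genes were Idi1, from 65.5 CPM (59.2 to 72.4) to 30.6 CPM (27.3 to 34.1), a log2 ratio of -1.10 (-1.32 to -0.88), Insig1, from 52.0 to 24.2 CPM, at -1.10, Sc5d, from 44.9 to 23.3 CPM, at -0.95, and Cyp51, from 69.8 to 43.5 CPM, at -0.68. Just outside the limit, Acat2 stood at -0.58. The higher genes were Fa2h at 1.93, Ugt8a at 1.86, Mvd at 1.28, Elovl1 at 0.79, Elovl5 at 0.75 and Acaca at 0.67, with Scd1 just outside at 0.57. The 17 cholesterol synthesis genes summed to 593 CPM in WT and 450.4 CPM in Sod1KO, a log2 ratio of -0.40 (-0.46 to -0.33). Of the 17, 9 had an interval below 0 and 1, Mvd, above it. Of all 13512 genes with a ratio, 3153 had one below 0 and 2607 above.

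These ratios compared different mixtures of cells. The cluster led by Bche, Unc80 and Slitrk3 made up 81.7% of WT but 28.6% of Sod1KO tSC-like cells, while the cluster led by Ucn2, Btc, Olig1 and Ngfr made up 14.8% (56 cells) of WT and 61.4% (535 cells) of Sod1KO. The remaining tSC-like cluster, led by Cfap299, Epha5 and Car10, made up 3.44% (13 cells) of WT and 9.99% (87 cells) of Sod1KO. It was shallow, at median depths of 3121 and 4653 UMIs. Its cholesterol synthesis genes summed to 169 CPM in WT, on 8 UMIs, and 213 CPM in Sod1KO. Within the Bche cluster the cholesterol synthesis genes summed to 560 CPM in WT and 528 CPM in Sod1KO, a log2 ratio of -0.09, and 4 of 34 genes were at least 1.5-fold higher and 3 lower. The 3 lower ones were Insig1, at -0.89 (-1.25 to -0.55), Idi1, at -0.76 (-1.08 to -0.46), and Cyp51, at -0.64 (-0.93 to -0.36), so these 3 stayed past the limit while Sc5d, at -0.22, did not. Mvd in this cluster stood at 2.12 (1.13 to 3.20) on 12 WT and 33 Sod1KO UMIs, and Elovl5 at 0.68. Of all genes with a ratio in this cluster, 5.47% were higher and 9.20% lower. The summed macrophage list, here Lyz2 almost alone, stood at 5127 CPM in WT and 1305 CPM in Sod1KO, and its part was not tested.

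Within the Ucn2 cluster the sums were further apart, at 1032 CPM in the 56 WT cells and 427 CPM in the 535 Sod1KO cells, a log2 ratio of -1.27 (-1.41 to -1.13), and 24 of 36 genes were at least 1.5-fold lower in Sod1KO and 0 higher. Of all genes with a ratio in this cluster, 20.1% were at least 1.5-fold lower and 17.1% higher. Idi1 stood at -2.24, Sc5d at -1.91, Hmgcs1 at -1.59, Insig1 at -1.58 and Cyp51 at -1.57. The myelin markers moved with them: the summed mSC list, with 10 of its 10 markers over 20 CPM in WT and 8 in Sod1KO, stood at 5177 CPM in WT and 1980 CPM in Sod1KO, the tSC list at 4602 and 2061 CPM, the perineurial list at 270 and 79.7 CPM and the mesenchymal list at 1260 and 320 CPM, and their part in the lower sums was not tested. The Ucn2 cluster was itself a different mixture in each genotype: 26 of its 56 WT but 32 of its 535 Sod1KO cells belonged to a subcluster led by Gfra3, with high Fads1 and Fads2. The subcluster with most of the other cells (40 WT and 541 Sod1KO cells, 30 and 434 of them from the Ucn2 cluster), led by Kcnj8, Flt1 and Hba-a2, had sums of 712 and 446 CPM, a log2 ratio of -0.67 (-0.84 to -0.51), with Insig1 at -1.44, Sc5d at -1.34, Idi1 at -1.21 and Cyp51 at -0.93. Kcnj8, Flt1 and Hba-a2 stand on the pericyte, endothelial and erythroid marker lists, in that order. The part of RNA from such cells in these ratios was not tested. Of 4 genes that were higher in Sod1KO over all tSC-like cells, the ratios in the Ucn2 cluster were -0.69 (-1.56 to 0.30) for Fa2h, -0.86 (-2.20 to 0.84) for Mvd and -0.45 (-1.05 to 0.22) for Elovl5, whose intervals include 0, and -1.24 (-1.98 to -0.40) for Ugt8a. In the Kcnj8 subcluster Fa2h stood at 0.21 and Elovl5 at 0.045, again with intervals that include 0, and Ugt8a and Mvd had 1 WT UMI each. In the Bche cluster Fa2h and Ugt8a were counted with 5 and 1 UMIs in WT and 10 and 7 in Sod1KO, too few for a ratio. In all Sod1KO tSC-like cells, 14 of 871 cells held 50% of the 117 Ugt8a UMIs.

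One subcluster of SCs, 26 WT and 32 Sod1KO cells that all belonged to the tSC-like class, held Fads1 and Fads2 at the highest levels. Fads1 stood there at 254 CPM (193 to 328) in WT and 202 CPM (153 to 263) in Sod1KO, and Fads2 at 258 and 227 CPM, against 13.4 to 77.9 CPM for either gene in the other subclusters. Its leading genes were Gfra3, Scn7a, Sgcz and Tenm1. Its summed cholesterol synthesis genes stood at 1200 CPM in WT and 751 CPM in Sod1KO. Without this subcluster the log2 ratio of the sum between genotypes in tSC-like cells was -0.36.

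Outside the SC classes, the number of genes past 1.5-fold between genotypes differed by class. In smooth muscle-like cells 0 of 33 genes with a ratio were past 1.5-fold in either direction (8.21% of all genes higher, 4.23% lower), and in tenocyte-like cells 1 of 35, Gal3st1 at 0.84 (8.14% higher, 4.15% lower). In macrophage-like cells 2 of 33 were higher (8.82%) and 6 lower (9.24%), and in mesenchymal-like cells 1 of 33 higher (9.98%) and 4 lower (5.40%). In endothelial-like cells 1 was higher and 5 lower of 31 in GFP+ (8.24% and 6.49%) and of 34 in GFP- (14.2% and 7.66%). In pericyte-like cells 1 was higher and 5 lower of 30 in GFP+ (7.57% and 11.3%), and 2 and 5 of 27 in GFP- (13.2% and 12.0%). In the summed cholesterol synthesis genes the log2 ratio was -0.05 in smooth muscle-like, -0.01 in tenocyte-like, -0.04 in macrophage-like, -0.11 in endothelial-like GFP+, -0.04 in endothelial-like GFP-, -0.26 in pericyte-like GFP+ and -0.12 in pericyte-like GFP- cells, and it was furthest from 0 in mesenchymal-like cells, at -0.32 (-0.41 to -0.22). Insig1 and Sc5d were the 2 genes whose ratio was below 0 in all 10 class and sort comparisons that gave one. For Insig1 the values ran from -1.26 in endothelial-like GFP- cells, 61.8 CPM in WT and 25.8 CPM in Sod1KO, to -0.03 in smooth muscle-like cells, with a median of -0.53. For Sc5d they ran from -0.95 in tSC-like cells to -0.00 in mesenchymal-like cells, with a median of -0.24. The tSC-like value compares different mixtures of clusters in the 2 genotypes. All 10 come from the same pools of mice, so they do not count as 10 independent comparisons.

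Beyond the 36, 54 other genes of the same pathways were followed. In WT mSC-like cells 19 of the 52 with a ratio were at least 2-fold higher than in other GFP+ cells and 13 lower, against 15.4% and 29.3% of all genes, and in Sod1KO 20 and 12 of 53, against 15.7% and 26.8%. Between genotypes, 3 of 46 were at least 1.5-fold higher in Sod1KO mSC-like cells and 0 lower, against 5.69% and 7.12% of all genes, and in tSC-like cells 7 of 49 were higher and 9 lower, against 11.5% and 14.4%, so these counts give no result about the pathway genes as a group. The 10 with the largest ratios are given as values. In mSC-like cells Sgms1, a sphingomyelin synthase, stood at 1.18 (0.94 to 1.42), from 34.7 to 78.5 CPM. The other 9 are from tSC-like cells. Among the genes of sterol uptake and its control, Lrp1, a lipoprotein receptor, stood at -1.10, Mylip, which marks the LDL receptor for degradation, at -1.26 and Apoe, the lipoprotein of glia, at -1.12, from 6938 to 3202 CPM. Lpin1, a phosphatidate phosphatase, stood at 1.51, and Abca1, which exports cholesterol, went from 23.9 to 67.8 CPM (log2 interval 1.24 to 1.78). The fatty acid genes Thrsp, Elovl2 and Elovl7 stood at -1.90, -1.70 and 1.48, each on at most 38 UMIs in a group, and Acss2, which makes acetyl-CoA from acetate, at -1.05. The mixture of the tSC-like clusters differed between genotypes for these genes as well.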

How the data were processed

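Cells were profiled by droplet-based RNA sequencing in 4 libraries. The authors deposited whole-number UMI counts per gene and cell, unnormalised; per the file headers they were made with Cell Ranger 7.1.0, and the labels name build mm10. The doublet, ambient RNA and integration steps of the study's methods were not applied to the deposited counts. Cells with over 200 genes and under 10% mitochondrial UMIs were kept, simulated-doublet scores removed 0.8% of barcodes per 1000, and cells were clustered (2000 variable genes, 30 components, Leiden resolution 1; SCs again at 0.5). UMIs were summed per class and library. A ratio needed 20 UMIs in both sums together; intervals are exact Poisson, conditional binomial or Clopper-Pearson at 95%. Past the limit means 2-fold between classes and 1.5-fold between genotypes. No test was run, with 1 library per group. The ratio, for Sod1KO over WT in mSC-like cells, and the counting intervals were tested on simulated counts. Cell filtering, doublet removal, clustering and class naming were not tested in this way.

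The genes and lists were chosen with earlier results of these data known. Values are printed per library for genes past 2-fold in both genotypes or 1.5-fold between genotypes, and up to 10 other pathway genes with the largest genotype ratio are named. Python 3.11.15, numpy 2.4.6, scipy 1.17.1, scikit-learn 1.9.0 and leidenalg 0.10.2 were used. The alternatives were 10 planned ones and 5 chosen after seeing the data. One marker gene of the class check is not reported here.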

Additional observations from a re-analysis of the deposited data

Results flagged for a closer look

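Some results stood on opposite sides of 0 for the 2 SC classes under the same Sod1KO over WT comparison, each with a counting interval that left out 0. The summed cholesterol synthesis genes had a log2 ratio of 0.14 for mSC-like and -0.40 for tSC-like cells. Hmgcs1 had 0.14 and -0.41, Idi1 had 0.13 and -1.10, and Ugt8a had -0.14 and 1.86, in the same order. The difference between the classes was not tested, since each genotype had 1 library, and the share of the tSC-like clusters differed between genotypes (14.8% and 61.4% for the cluster led by Ucn2).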

How the results depend on the processing

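Of 116 counts and sums recomputed under the alternatives, 94 stayed close to the value reported, 21 moved and 1 turned direction, and of 2442 single ratios 1973 stayed, 461 moved and 8 turned; the cause was not tested. The log2 ratio of the summed cholesterol synthesis genes in mSC-like cells was 0.23 with a stricter cell filter, 0.091 as a mean over cells, 0.20 without Gm42418 and mitochondrial genes, and -0.092 with classes from a per-cell marker rule. In tSC-like cells it was -0.30, -0.48 and -0.54 with the stricter filter, mean and per-cell rule, and -1.27 in the Ucn2 cluster alone. It was -0.086 in the Bche cluster alone. Leaving out clusters mostly of 1 library keeps the same tSC-like cells, so its equal value is not a separate check. Genes at least 1.5-fold higher in Sod1KO mSC-like cells numbered 5 with the stricter filter, 1 with the per-cell rule, and 4 both without Gm42418 and mitochondrial genes and in the larger mSC-like cluster; 1 was lower with the per-cell rule. In tSC-like cells, the Ucn2 cluster alone gave 0 higher and 24 lower, and the mean over cells 8 lower. Genes at least 2-fold higher in tSC-like than other cells numbered 1 in Sod1KO with median-of-ratios scaling, and in WT 7 with the mean over cells, 7 with the per-cell rule and 13 without the unnamed cluster. In the Ucn2 cluster alone the genotype ratio turned to -0.45 for Elovl5, -0.69 for Fa2h, -0.86 for Mvd and -1.24 for Ugt8a. The intervals of the first 3 include 0. The Kcnj8 subcluster held most of the Sod1KO cells of the Ucn2 cluster, and its leading genes included pericyte, endothelial and erythroid markers. There Elovl5 and Fa2h stood at 0.045 and 0.21, and Mvd and Ugt8a had 1 WT UMI each. Fa2h in tSC-like over other cells turned to -1.14 in Sod1KO without clusters mostly of 1 library, and in WT to 0.050 with the per-cell rule and 2.16 without the unnamed cluster, as did Ugt8a (2.16). The cluster-alone and unnamed-cluster alternatives were chosen after seeing the data. The shift that median-of-ratios scaling takes off is the median log2 ratio of the genes with at least 20 UMIs in each of the 2 sums. This shift was 0.21 and 0.20 (mSC-like over other, WT and Sod1KO), 0.30 and 0.29 (tSC-like over other) and -0.14 in both (mSC-like over tSC-like). Depth limits Mvd, Fa2h and Ugt8a in WT tSC-like cells, with 17, 18 and 18 UMIs. The GFP+ and GFP- libraries of a genotype came from the same pool of mice. With 1 library per group there was no replicate for a paired analysis.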
